A study of Macaca mulatta with 12 samples.

Results

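LHX6, ADARB2, SOX6, SATB1, NR2F2 and MAF are 6 genes by which the embryonic origin of forebrain interneurons is commonly read, and they were followed here by name among the 19708 genes of a raw count table of rhesus macaque (Macaca mulatta) amygdala nuclei. Their co-detection was read in the 3272 of 26400 nuclei that held at least 3 unique molecular identifiers (UMIs, 1 per captured transcript) of GAD1 and GAD2 together. GAD1 and GAD2 make GABA, the transmitter of inhibitory neurons, and these nuclei are called GAD nuclei below. The nuclei came from frozen, surgically removed amygdala, and the 12 labelled samples formed 1 group without treatment or genotype labels. Sample titles carry specimen numbers up to 3 and library numbers up to 4, but the nuclei carry only 1 of 3 barcode suffixes that no label ties to a sample. All nuclei therefore counted as 1 sample, with no replicate error and no test, and the 3 barcode sets only show whether a direction recurred.

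Cortical and amygdala interneurons are born in the ventral forebrain, mostly in the medial and the caudal ganglionic eminence, and migrate to their targets. In mice, cells of the medial eminence keep the LIM homeodomain factor LHX6 and its downstream partners SOX6 and SATB1 and become somatostatin and parvalbumin interneurons, with MAF acting in the same lineage. Cells of the caudal eminence express the nuclear receptor NR2F2 (COUP-TFII) and PROX1 and give VIP, reelin and serotonin receptor 3A interneurons. ADARB2, a brain member of the RNA-editing enzyme family with no known editing activity, is widely used as a marker of the caudal-type neurons in adult cortex. None of the 6 genes is limited to interneurons across tissues.

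The pool held 151526883 UMIs with a median of 5053.5 per nucleus, and the barcode sets held 9201, 8900 and 8299 nuclei, with 68 barcode sequences occurring in more than 1 set. GAD nuclei had a median of 6381 UMIs and numbered 1173, 1107 and 992 in the 3 sets. Of them, 2911 (89.0%) fell in the inhibitory class of a clustering made without the 6 genes, 281 were presumed doublets and 72 fell in the excitatory class. The inhibitory class as a whole held 4121 nuclei, of which 70.6% met the GAD minimum. That share was uneven over the inhibitory clusters described below. Among clusters high in LHX6, 512 of 593 nuclei met it in I1 and 407 of 464 in I2. Among clusters high in ADARB2, 247 of 299 met it in I6, but 109 of 288 in I7 and 98 of 344 in I5. Shares of GAD nuclei therefore describe nuclei that met the minimum and not the whole class. Levels are UMIs of a gene scaled to 1000000 UMIs (CPM). The 95% intervals, Poisson for levels and Clopper-Pearson for shares, are exact and speak of counting error alone.

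ADARB2 and LHX6 were the members found in most GAD nuclei, and they parted these nuclei into unequal portions. ADARB2 was detected (at least 1 UMI) in 69.0% of GAD nuclei (67.4 to 70.6%), with 69.5, 69.5 and 68.0% in the 3 barcode sets. LHX6 was detected in 35.9% (34.2 to 37.6%), with 35.8, 36.4 and 35.4% in the sets. The shares recurred closely across the sets for both genes. SATB1, a chromatin organiser of maturing interneurons, was detected in 31.1% and SOX6 in 29.3% of GAD nuclei. MAF, a leucine zipper factor, was detected in 16.6% and NR2F2 in 13.4%.

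The counts behind these shares were of different kinds. A nucleus with ADARB2 held a median of 44 UMIs of it and up to 488, and 53.9% of GAD nuclei held at least 10, 15.2% held 1 to 9 and 31.0% held 0. LHX6, SATB1, SOX6, NR2F2 and MAF were sparse, with a median of 1 or 2 UMIs where detected. A nucleus with 0 UMIs of a sparse member may thus still express it, and shares of co-detection rise with depth.

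The members were also detected outside inhibitory neurons, to different extents. LHX6 was found in 0.803% of excitatory nuclei and 0.672% of astrocytes, far below its share in GAD nuclei; excitatory nuclei had a median of 7937 UMIs and astrocytes one of 1738. ADARB2 had at least 1 UMI in 75.9% of excitatory nuclei and in 21.1% of astrocytes, so 1 UMI of ADARB2 did not mark an inhibitory neuron. SOX6 was detected in 45.05% of astrocytes, above its share in GAD nuclei, and in 11.3% of excitatory nuclei. NR2F2 was found in 5.69% of excitatory nuclei and MAF in 0.857%.

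LHX6 and ADARB2 were detected together less often than any other pair of the 6 genes relative to their shares. Both were detected in 461 GAD nuclei, or 14.1% (12.9 to 15.3%), where the product of their shares is 24.8%. ADARB2 was detected in 39.3% of the nuclei with LHX6 (36.5 to 42.1%) and in 85.7% of those without it (84.1 to 87.2%). LHX6 was detected in 20.4% of the nuclei with ADARB2 and in 70.4% of those without it. The odds ratio of co-detection, which compares the odds of finding one gene with and without the other, was taken within 10 strata of total UMIs because detection of every gene rises with depth. On the log2 scale it was -3.19 for this pair, and -3.09, -3.03 and -3.40 in the 3 barcode sets.

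The pooled level of ADARB2 was far lower from the first LHX6 UMI on, and lower again by smaller steps with each further UMI. ADARB2 stood at 8750 CPM in nuclei with 0 UMIs of LHX6, 938 CPM with 1, 802 CPM with 2, 717 CPM with 3 and 626 CPM with 4 or more. The share of nuclei holding at least 30 ADARB2 UMIs was largest where LHX6 was not detected: 22.9% of those nuclei held 30 to 59 and 39.9% held 60 or more. Among nuclei with 4 or more LHX6 UMIs, 72.4% held no ADARB2 UMI, against 62.0% with 1, 55.9% with 2 and 58.2% with 3. The share without ADARB2 thus did not rise step by step as the pooled level fell. Median depth rose from 6579 UMIs in nuclei with 1 LHX6 UMI to 8640.5 in those with 4 or more. Read the other way, LHX6 was detected in 70.4% of nuclei with 0 ADARB2 UMIs, 60.5% with 1 to 4, 45.2% with 5 to 9, 29.4% with 10 to 29, 7.34% with 30 to 59 and 3.57% with 60 or more. LHX6 detection thus fell at each step of ADARB2, with no sharp edge. With ADARB2 counted as present only from 10 UMIs on, a minimum chosen after the data were seen, the log2 odds ratio was -4.03.

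**Figure D1:**
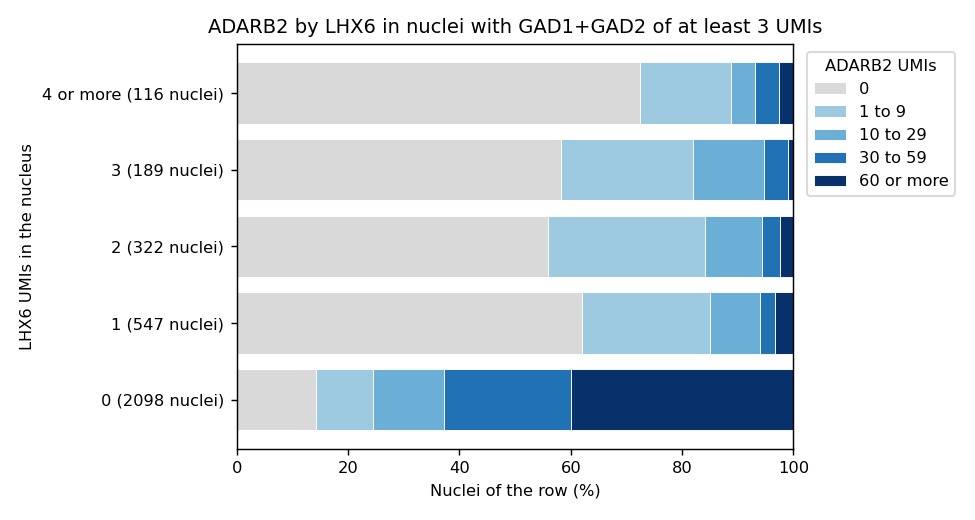
Share of GAD nuclei (%, horizontal axis) by their ADARB2 UMIs (shades), in rows of nuclei by their LHX6 UMIs. Of nuclei with 4 or more LHX6 UMIs 72.4% held no ADARB2 UMI, and of nuclei without an LHX6 UMI 39.9% held 60 or more.

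Of the 15 pairs, 3 had a log2 odds ratio at or above 1, 3 at or below -1, and 9 lay between. The positive pairs joined the genes of the medial eminence: SOX6 with SATB1 at 1.48, LHX6 with SOX6 at 1.36 and LHX6 with SATB1 at 1.25. The negative pairs all held ADARB2: with LHX6, with SATB1 at -2.25 and with SOX6 at -1.58. These 6 pairs had the same sign in all 3 barcode sets. SATB1 was detected in 20.9% of the nuclei with ADARB2 and in 54.0% of those without it, and SOX6 in 21.8% of the nuclei with ADARB2 and in 46.2% of those without it. Set against all 11793 genes detected in 2 to 98% of GAD nuclei, 1.77% of genes reached a log2 odds ratio of 1 with LHX6 and 2.04% reached -1. For ADARB2 these shares were 3.02 and 1.98%, for SOX6 1.03 and 0.5%, for SATB1 1.56 and 1.82%, for NR2F2 0.483 and 0.848%, and for MAF 0.136 and 0.458%.

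At the minimum of 1 UMI, every pair of MAF or NR2F2 with another member lay within 1 of 0. MAF leaned to LHX6 (0.69) and SATB1 (0.63) and away from ADARB2 (-0.86), with the same sign in every set. NR2F2 leaned to ADARB2 (0.79) and away from LHX6 (-0.94) and SOX6 (-0.67), again with the same sign in every set. NR2F2 did not lean away from SATB1, and that pair stood at 0.42, with 0.40, 0.40 and 0.56 in the sets. SOX6 with MAF (0.26) and NR2F2 with MAF (-0.01) changed sign between sets. Both genes are sparse, with 440 GAD nuclei holding NR2F2 and 542 holding MAF, and the ratios of NR2F2 depend on the minimum. With at least 2 UMIs asked of each gene, NR2F2 stood at -1.81 with SOX6, -1.45 with LHX6, -1.28 with MAF and 1.18 with ADARB2. These ratios rest on few nuclei holding both genes at that minimum: 4 with SOX6, 7 with LHX6, 1 with MAF and 63 with ADARB2.

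Across all genes, only 2 had a lower log2 odds ratio with LHX6 than ADARB2 had, the serotonin-gated channel HTR3A (-3.33) and the acid-sensing channel family member ASIC4 (-3.20), and HTR3A was detected in 23 nuclei with LHX6, or 1.959% of them, and in 14.7% of those without. The genes found most with LHX6 were NXPH1, a secreted neurexin ligand (6.67), the netrin receptor UNC5D (4.58) and the calcium channel subunit CACNA1A (4.33). NXPH1 was detected in 99.3% of the nuclei with LHX6 and in 57.5% of those without. UNC5D was in 99.4% of nuclei with LHX6 and 84.1% of those without, and CACNA1A in 99.4 and 87.9%. Large ratios of genes found in nearly all nuclei of one side, here and below, turn on the few nuclei that lack them. NXPH1 (-5.30), CACNA1A (-3.97) and the exchange factor RASGRF2 (-3.85) were the genes found least with ADARB2. ASIC4 was the gene found most with ADARB2, in 73 nuclei with ADARB2 and in none of the 1013 without it, which leaves its ratio without an upper end. HTR3A (3.72) and the methyltransferase NNMT (3.69) followed.

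The other members had partners of their own, named here among genes with a symbol. SATB1 was found most with the ferritin receptor SCARA5 (3.07), the tachykinin precursor TAC1 (2.73) and the homeobox gene CUX2 (2.72), and least with CSMD3 (-2.72), EREG (-2.59) and PTGS1 (-2.57). TAC1 was detected in 20.8% of the nuclei with SATB1 and in 3.15% of those without. SOX6 was found most with the endopeptidase gene MME (2.69), CACNA1A (2.15) and POSTN (2.08), and least with the calcitonin receptor CALCR (-1.87), ADARB2 (-1.58) and KCNT2 (-1.57). NR2F2 was found most with ROBO1 (2.72), TENM2 (2.26) and the calcium-binding protein gene CALB2 (1.74), and least with HHATL (-2.69), SFTA3 (-2.42) and ABCA15 (-2.36). MAF was found most with CADPS (2.40), KALRN (1.44) and CA5A (1.40), and least with CHRNA5 (-2.06), CALCR (-2.05) and IKZF3 (-1.78). ROBO1 and TENM2 were in 99.1 and 99.5% of nuclei with NR2F2, and in 93.9 and 97.6% of those without. CADPS and KALRN were in 99.6 and 98.9% of nuclei with MAF, and in 97.5 and 96.4% of those without. Such ratios turn on the few nuclei that lack the gene. Each lowest partner of NR2F2 and MAF was found with it in only 2 to 4 nuclei.

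Nuclei sorted by the pair itself showed how the other 4 members went with it. LHX6-only nuclei, with at least 2 UMIs of LHX6 and none of ADARB2, numbered 374, and ADARB2-only nuclei, with at least 2 UMIs of ADARB2 and none of LHX6, numbered 1727. A further 176 nuclei held at least 2 UMIs of both, 300 held neither gene, and 695 lay between these definitions. SATB1 stood at 234 CPM in LHX6-only nuclei (217 to 253) and at 48.9 CPM in ADARB2-only nuclei (44.9 to 53.1), a log2 ratio of 2.26, with 2.05, 2.43 and 2.31 in the barcode sets. SOX6 stood at 174 CPM in LHX6-only nuclei (159 to 189) and at 44.99 CPM in ADARB2-only nuclei (41.2 to 49.04), a log2 ratio of 1.95, with 1.44, 2.15 and 2.34 in the sets. Both were over 2-fold higher in LHX6-only nuclei in every set. With both groups restricted to the inhibitory class, a step added after the data were seen, the log2 ratio of SOX6 was 2.65 and that of SATB1 2.25.

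MAF and NR2F2 differed by less than 2-fold, in opposite directions. MAF stood at 37.5 CPM in LHX6-only nuclei (30.9 to 45.2) and at 20.6 CPM in ADARB2-only nuclei (18.1 to 23.4), a log2 ratio of 0.86. NR2F2 stood at 18.2 CPM in LHX6-only nuclei (13.7 to 23.8) and at 33.3 CPM in ADARB2-only nuclei (30.1 to 36.8), a log2 ratio of -0.87. The sets gave log2 ratios of 1.05, 1.07 and 0.45 for MAF and -0.61, -0.77 and -1.38 for NR2F2. With nuclei thinned to 2000 UMIs MAF passed 2-fold at 1.53 and NR2F2 stood at -0.10, so their sizes changed with thinning. Over all 11052 genes measured, 7.42% differed at least 2-fold, 227 of them (2.05%) higher and 593 (5.37%) lower in LHX6-only nuclei, with a median log2 ratio of -0.05. LHX6-only nuclei had a median of 7673.5 UMIs and 2.14% presumed doublets, and ADARB2-only nuclei had 5981 UMIs and 9.96%. With presumed doublets left out, 233 genes were higher and 509 lower, and SATB1 and SOX6 stood at 2.27 and 2.28.

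Genes of the medial ganglionic eminence were higher in LHX6-only nuclei. Of 16 genes listed for it, 11 were measured, and 7 were at least 2-fold higher and 0 lower, with a median log2 ratio of 1.72. This list and those below were chosen with earlier results of these data known, so their counts are descriptions and not tests. TAC1 stood at 47.6 CPM in LHX6-only nuclei and 4.35 CPM in ADARB2-only nuclei (3.45). CRHBP, which binds the stress peptide CRH, stood at 38.5 CPM in LHX6-only nuclei and 4.00 CPM in ADARB2-only nuclei (3.27). Neuropeptide Y (NPY) had a log2 ratio of 2.97 and NXPH1 one of 2.36, and somatostatin (SST), ELFN1 and NOS1 were the others past 2-fold, at 2.23, 1.72 and 1.39. UNC5B (0.85), KCNC1 (0.70), KCNC2 (0.58) and RBP4 (-0.26) lay within 2-fold. PVALB, which defines the other main medial type, was too low to be measured, with 8 UMIs in all LHX6-only nuclei.

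Genes of the caudal ganglionic eminence went the other way. Of 20 genes listed, 17 were measured, and 13 were at least 2-fold lower and 0 higher in LHX6-only nuclei, with a median of -2.27. The cannabinoid receptor CNR1 stood at 54.4 CPM in LHX6-only nuclei and 1239 CPM in ADARB2-only nuclei (-4.51). NDNF (-4.24), the chemokine CXCL14 (-3.95) and HTR3A (-3.69) followed, and NDNF and HTR3A stood at 3.04 and 3.38 CPM in LHX6-only nuclei. RELN, which encodes reelin, stood at 278 CPM in LHX6-only nuclei and 2414 CPM in ADARB2-only nuclei (-3.12), so it was lower in LHX6-only nuclei without being absent from them. The shares of nuclei with a RELN UMI differed much less, at 51.6% of LHX6-only and 58.4% of ADARB2-only nuclei. VIP, PROX1, CALB2, NPAS1, NR2E1, CCK, NPAS3 and SP8 were the others past 2-fold, and SP8 had 0 UMIs in LHX6-only nuclei, so its ratio of -2.27, the middle of the list, is a bound from a floor of 3 counts. LAMP5, ID2, SV2C and EYA4 lay between -0.31 and 0.06, within 2-fold.

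Of 6 measured genes shared by GABA neurons 0 passed 2-fold, and GAD1 (0.27) and GAD2 (-0.21) were nearly level. Of 10 measured genes of the lateral eminence and of projection GABA neurons, 0 were higher and 2 were lower in LHX6-only nuclei: the zinc finger factor BCL11B (-3.05) and MEIS2 (-1.42). BCL11B was detected in 9.36% of LHX6-only and 38.0% of ADARB2-only nuclei. For MEIS2 these shares differed little, at 9.36 and 11.4%. Of 5 measured excitatory genes the synaptic vesicle gene SV2B passed 2-fold (-1.68), all 5 were below 0, and the list median was -0.80. The excitatory transporter SLC17A7 stood at 20.9 CPM in LHX6-only nuclei and 35.9 CPM in ADARB2-only nuclei, against 134 CPM in the excitatory class. With all nuclei holding a UMI of SLC17A7 or SV2B left out, 221 genes were higher and 499 lower, and CNR1 (-4.61), TAC1 (3.55) and SATB1 (2.33) kept their direction.

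**Figure D2:**
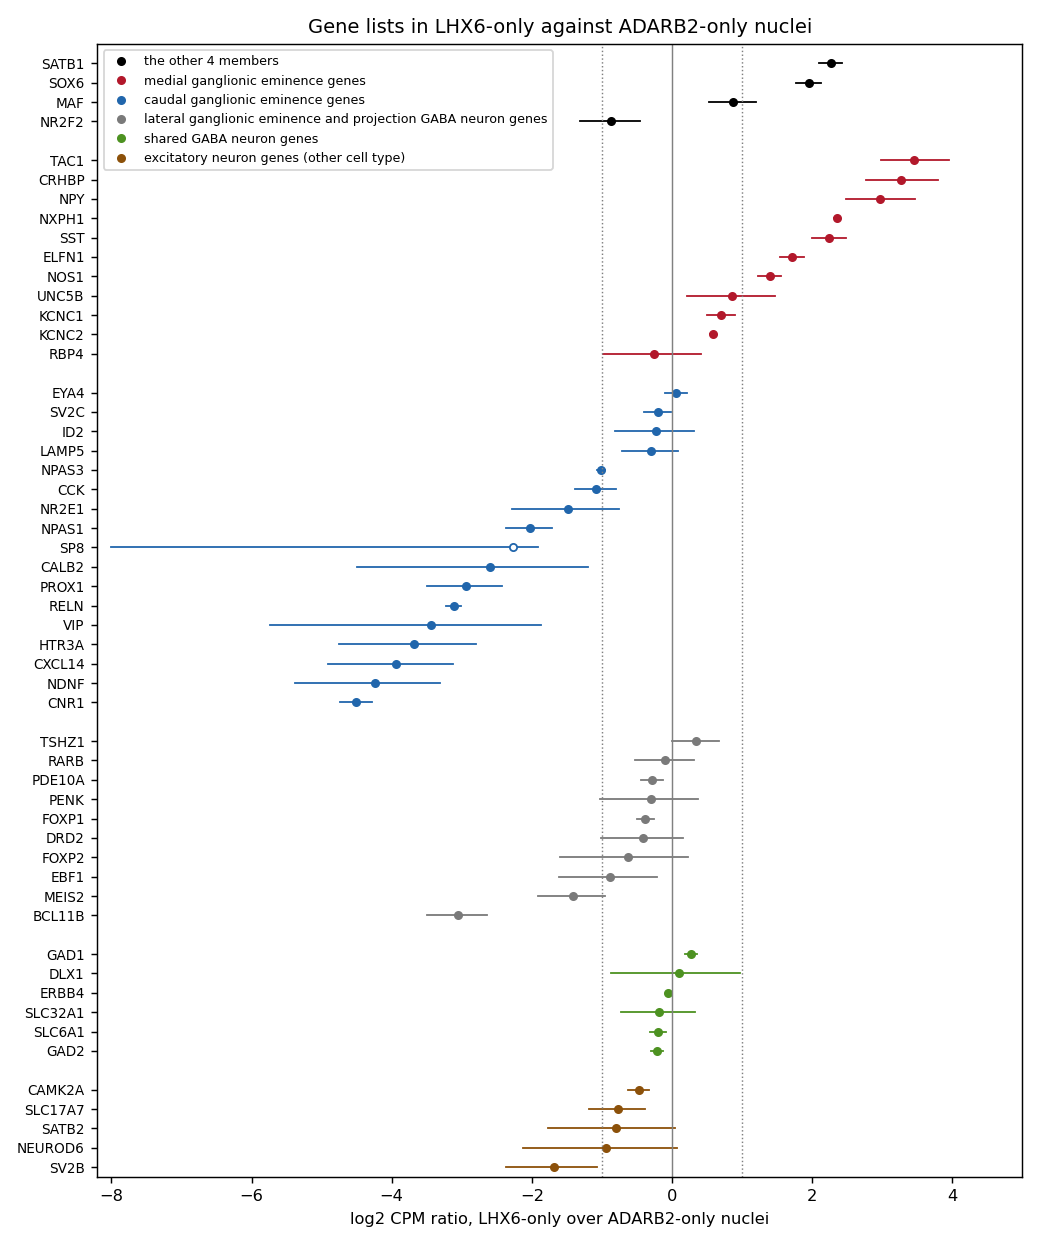
Log2 ratio of CPM in LHX6-only over ADARB2-only nuclei (horizontal axis) for the other 4 members and for the measured genes of 5 lists (colours), with exact 95% intervals for counting error; dotted lines mark 2-fold and the open circle a bound. The 7 medial genes past 2-fold lie to the right and the 13 caudal genes past 2-fold to the left.

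The largest ratios over all genes fell partly outside these lists. SCARA5 stood at 26.7 CPM in LHX6-only nuclei and 0.783 CPM in ADARB2-only nuclei, where it had 9 UMIs (5.09), and CUX2 at 390 CPM in LHX6-only nuclei and 26.7 CPM in ADARB2-only nuclei (3.87). The secreted protein gene TAFA4 (3.85), MORN5 (3.54) and the ubiquitin ligase gene RNF152 (3.49) followed. NNMT stood at 0.676 CPM in LHX6-only nuclei, from 2 UMIs, and 18.1 CPM in ADARB2-only nuclei (-4.74). The calcium-binding protein gene SCGN (-4.52) had 1 UMI in LHX6-only nuclei, and CNR1, the collagen gene COL21A1 (-4.39) and NDNF were the others of the 5 lowest.

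Nuclei with both genes matched neither group in all of the other members. The 176 such nuclei had 101 CPM of SOX6 (84.9 to 119), between the LHX6-only and the ADARB2-only value. SATB1 stood at 66.7 CPM in them (53.7 to 81.8), near the ADARB2-only value. NR2F2 stood at 8.79 CPM from 12 UMIs (4.54 to 15.4), below the ADARB2-only value, and its interval overlapped the LHX6-only one. The caudal genes within 2-fold above were higher in the 176 nuclei than in either group. LAMP5, ID2, SV2C and EYA4 stood at 82.8, 24.9, 324 and 603 CPM, against at most 27.2, 13.5, 105 and 144 CPM in the 2 groups. CNR1 at 163 CPM and RELN at 360 CPM lay between the 2 groups. Presumed doublets made up 11.4% of the 176 nuclei, against 2.14% of LHX6-only and 9.96% of ADARB2-only nuclei. The 176 nuclei were not spread over the inhibitory clusters: 51.1% lay in cluster I1 and 23.3% in cluster I12, both described below. The 300 nuclei with neither gene had 167 CPM of SOX6 and 202 CPM of SATB1, near the LHX6-only values, and 10.6 CPM of NR2F2.

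Inhibitory nuclei clustered again without the 6 genes fell into 16 clusters, numbered I1 to I16 by size, and LHX6 divided them into 2 sets with nothing between. In 7 clusters with 1822 nuclei LHX6 stood at 177 to 260 CPM, and in 9 clusters with 2299 nuclei at 0 to 5.06 CPM. Neighbouring levels overlapped in their counting intervals within the higher set, from I14 at 260 CPM (219 to 307) to I11 at 177 CPM (150.0 to 207). The gap down to I3 at 5.06 CPM (2.83 to 8.34) was far wider than the intervals. ADARB2 stood at 8026 to 16991 CPM in the 9 clusters low in LHX6, and 99.7% or more of the nuclei of each had a UMI of it.

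Within the 7 clusters high in LHX6, ADARB2 took 3 kinds of level. In I11, I2, I9, I14 and I13 it stood at 22.6, 112, 124, 137 and 145 CPM, at or below the 145 CPM of astrocytes. In I1, the largest cluster with 593 nuclei, it stood at 1204 CPM (1167 to 1241), with 0 UMIs in 50.1% of nuclei, 1 to 9 in 30.7% and 10 or more in 19.2%. In I12, with 149 nuclei, it stood at 3189 CPM (3069 to 3312) and 97.3% of nuclei had a UMI. I1 and I12 were also the clusters of the higher set in which LAMP5, a marker of neurogliaform cells, was abundant, at 117 and 163 CPM, against at most 7.59 CPM in the other 5. LHX6 stood at 214 CPM in I1 and 180 CPM in I12, so ADARB2 differed widely among clusters with similar LHX6.

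SOX6 and SATB1 did not keep step with LHX6 or with each other among these 7 clusters. Both were highest in I11, at 530 CPM of SOX6 (483 to 580) and 430 CPM of SATB1 (388 to 476), where SST was also highest at 306 CPM. I2 had 226 CPM of SOX6 and 328 CPM of SATB1, and I13 had 163 and 374 CPM of them. I14 held SOX6 at 172 CPM with SATB1 at 18.7 CPM, and I9 held the reverse, SOX6 at 24.3 CPM with SATB1 at 122 CPM. I9 also had 188 CPM of SST. I1 had 56.9 CPM of SOX6 and 13.8 CPM of SATB1, and I12 had 87.0 and 16.7 CPM of them, so SATB1 was low in both clusters that held ADARB2 and in I14.

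Among the 9 clusters high in ADARB2, SOX6 stayed at 15.5 to 36.3 CPM. SATB1 was not low in all of them: it stood at 130 CPM in I3 (118 to 144), with at least 1 UMI in 46.4% of nuclei, and at 74.7 CPM in I7. I3 had 3687 CPM of RELN, 2378 CPM of CNR1 and 103 CPM of HTR3A. NR2F2 was highest in I7 (90.2 CPM, 74.6 to 108) and I6 (87.5 CPM, 72.8 to 104), followed by I13 (44.6 CPM), I3 (44.5 CPM) and I8 (43.2 CPM), whose intervals overlapped. I13 belongs to the clusters high in LHX6, so NR2F2 was not limited to those high in ADARB2. In I4, which had the highest ADARB2 at 16991 CPM, NR2F2 stood at 9.70 CPM (6.08 to 14.7).

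MAF had the narrowest range. It stood at 35.7 to 43.6 CPM in 6 of the 7 clusters high in LHX6 and at 11.2 CPM in I14 (4.12 to 24.4). In the 9 clusters high in ADARB2 it ran from 6.22 CPM in I7 to 30.9 CPM in I4. The 2 clusters with the most NR2F2, I7 and I6, were among those with the least MAF, at 6.22 and 11.2 CPM. Over all 16 clusters, however, NR2F2 and MAF levels had a Spearman rho of only -0.06.

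**Figure D3:**
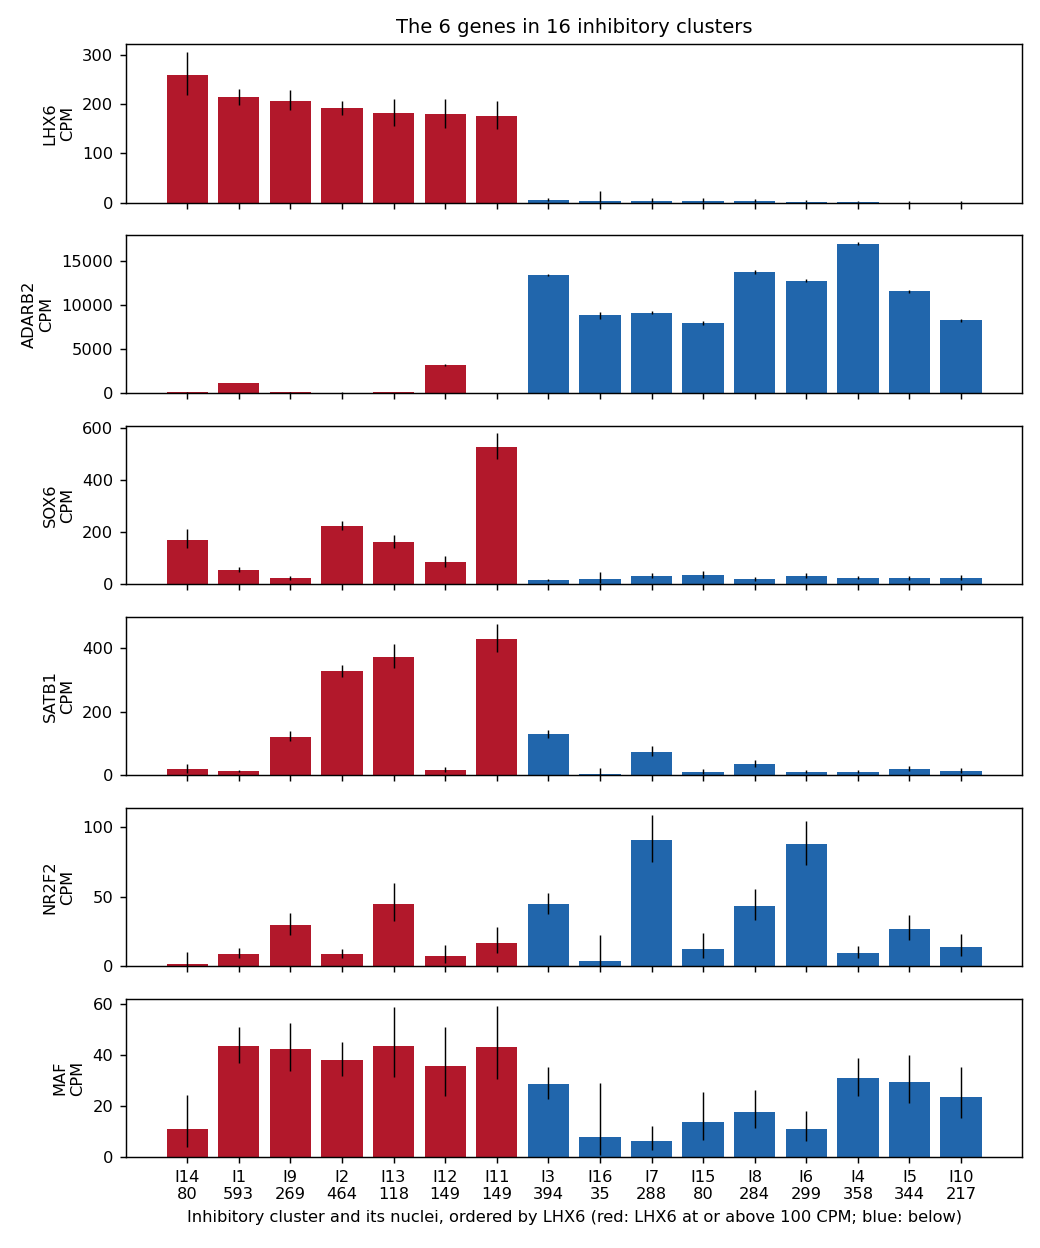
Level (CPM, vertical axes) of the 6 genes in 16 inhibitory clusters ordered by LHX6, with the number of nuclei under each name; bars carry exact 95% Poisson intervals. Clusters at or above 100 CPM of LHX6 are red, and ADARB2 stands at 8026 CPM or more in all blue ones and at 3189 CPM or less in the red ones.

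With inhibitory clusters as strata, the odds ratio of LHX6 with ADARB2 was close to level. In the 2911 GAD nuclei of the inhibitory class, the log2 odds ratio of the pair was -3.19 with strata of total UMIs and 0.28 with the 16 clusters as strata, a comparison added after the data were seen. The clusters replaced the depth strata, so depth was not held level within them. Because detection rises with depth, small positive ratios within clusters cannot be told apart from an effect of depth. All 15 pairs lay between -0.34 and 0.75 within clusters. LHX6 with NR2F2 (0.43), ADARB2 with SOX6 (0.16), ADARB2 with NR2F2 (-0.12) and NR2F2 with MAF (0.29) also had the opposite sign there from that with depth strata. ADARB2 was detected in nearly all nuclei of I12 and of the clusters high in ADARB2, so detection from 1 UMI shows little there. With ADARB2 counted only from 10 UMIs, the ratio of the pair within clusters was 0.16. In I1, ADARB2 was detected in 55.4% of the nuclei with LHX6 and in 47.3% of those without it. At least 10 ADARB2 UMIs were held by 23.0% of I1 nuclei with LHX6 and 17.2% of those without it, and by 71.3% of I12 nuclei with LHX6 and 79.2% of those without it. In I2 the shares with any ADARB2 UMI were 19.1% with LHX6 and 19.2% without it. SATB1 with NR2F2 had the highest ratio within clusters, at 0.75. The clusters were made from other genes of the same nuclei, so this places the pattern without testing it.

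**Figure D4:**
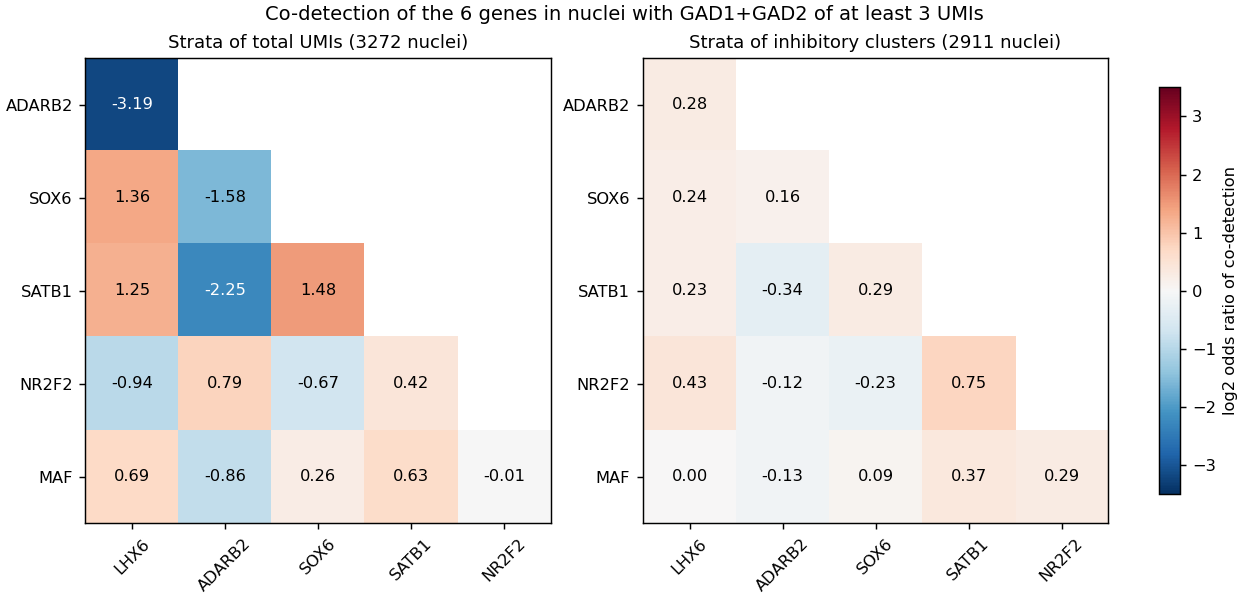
Log2 odds ratio of co-detection (colour and printed value) for the 15 pairs of the 6 genes in GAD nuclei, with strata of total UMIs (left, 3272 nuclei) and with inhibitory clusters as strata (right, 2911 nuclei). LHX6 with ADARB2 stands at -3.19 on the left and 0.28 on the right.

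Over the 16 clusters, LHX6 and ADARB2 levels had a Spearman rho of -0.73 and, on log2(CPM + 5), a Pearson r of -0.88. These describe clusters of 1 pool that share library and depth. By the same r over 9489 genes, the genes most like LHX6 were MORN5 (0.99), HERPUD2 (0.95) and SPRED3 (0.92). MORN5 is the next protein-coding gene beside LHX6 in the RefSeq annotation of assembly T2T-MMU8v2.0, with 0 such genes between them, and it also stood among the 5 largest ratios above, at 88.9 CPM in LHX6-only nuclei and 7.66 CPM in ADARB2-only nuclei. Whether reads of one gene were counted to the other cannot be read from the counts. ZBTB16, BTN3A1 and NNMT were most like ADARB2 (0.87, 0.85 and 0.85), and MICU3, CABLES1 and ACSL6 most like SOX6 (0.85 each). BCHE, LTBP1 and TAC1 were most like SATB1 (0.90, 0.89 and 0.88), COMMD10, PIGX and CEP112 most like NR2F2 (0.93, 0.86 and 0.86), and CCDC61, SCUBE2 and DNAJB5 most like MAF (0.85, 0.82 and 0.82).

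Across the 9 named classes of nuclei, LHX6 and ADARB2 were highest in inhibitory neurons, and SOX6, NR2F2 and MAF were highest elsewhere. The intervals of SATB1 overlapped between microglia, oligodendrocyte precursors and inhibitory neurons. The level in inhibitory neurons was set against the mean CPM of the 8 other classes, and of the 6 members 2 were higher and 2 lower there by 2-fold or more. Of all 15408 genes measured in this way, 8.77% were higher and 22.4% lower. Classes were named by marker genes, so inhibitory neurons carried 364 CPM of GAD1 and 427 CPM of GAD2, against 23.2 and 8.42 CPM in the other nuclei.

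LHX6 stood at 99.2 CPM in inhibitory neurons (95.3 to 103), with 104, 98.4 and 95.1 CPM in the 3 barcode sets. Endothelial cells came next at 20.3 CPM from 5 UMIs (6.59 to 47.4), then oligodendrocytes at 10.5 CPM, ependymal cells at 7.12 CPM, astrocytes at 3.76 CPM, oligodendrocyte precursors at 2.52 CPM and excitatory neurons at 0.985 CPM. The intervals of neighbours overlapped from endothelial cells down to excitatory neurons. Microglia and mural cells held 0 UMIs, with intervals that reach at most 16.6 CPM. The log2 ratio over the mean of the other classes was 4.13, and 3.47 with these 2 classes set to 3 counts, or 13.5 and 13.0 CPM.

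ADARB2 stood at 6767 CPM in inhibitory neurons (6735 to 6799), with 6556, 6753 and 7011 CPM in the sets, a log2 ratio of 4.40 over the mean of the other classes. Oligodendrocyte precursors held 893 CPM (840 to 948), oligodendrocytes 508 CPM and excitatory neurons 466 CPM, and the other classes 89.3 to 246 CPM. The share of nuclei with a UMI did not show this order, being 70.8% in inhibitory neurons and 75.9% in excitatory neurons. With each nucleus thinned to 1000 UMIs it was 64.2% in inhibitory neurons and 34.4% in excitatory neurons. Within the excitatory class ADARB2 was uneven, at 764 CPM in its largest cluster (5141 nuclei, with 265 CPM of PROX1) and 632 CPM in a cluster of 1546 nuclei, but 41.2 CPM in the smallest.

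SOX6 was highest in glia. Oligodendrocyte precursors, in which SOX6 is known from mice to hold back maturation, had 1996 CPM (1916 to 2078), ependymal cells 1057 CPM (1006 to 1109) and astrocytes 401 CPM (389 to 413). Inhibitory neurons had 86.0 CPM (82.4 to 89.7), a log2 ratio of -2.50 over the mean of the other classes, and -2.47, -2.52 and -2.51 in the sets. The precursor class also held BCAS1 at 2069 CPM, a gene of committed precursors, and oligodendrocytes proper had 69.7 CPM of SOX6. Excitatory neurons were lowest at 14.8 CPM.

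SATB1 did not single out a class. Microglia had 130 CPM (87.3 to 187), oligodendrocyte precursors 119 CPM (101 to 141) and inhibitory neurons 114 CPM (110 to 118), and these intervals overlapped. Excitatory neurons were lowest at 24.0 CPM, with 125 to 143 CPM in 3 small clusters of 143 to 329 nuclei and 4.70 to 20.4 CPM in the other 5. The log2 ratio of inhibitory neurons over the mean of the other classes was 0.56.

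NR2F2, which patterns veins and vessel wall cells besides neurons, was highest in mural cells at 377 CPM (302 to 465), with 360, 388 and 379 CPM in the sets. Inhibitory neurons had 28.2 CPM (26.2 to 30.4), close to astrocytes at 31.5 CPM and ependymal cells at 31.1 CPM, and their log2 ratio over the mean of the other classes was -1.20. Only mural cells, with 162 nuclei, lay above that mean of 64.9 CPM, and inhibitory neurons ranked 5 among the classes. MAF, which also acts in macrophages, was highest in microglia at 337 CPM (265 to 423), with 399, 282 and 327 CPM in the sets. Inhibitory neurons were second for MAF at 30.7 CPM (28.6 to 33.0), and the third, mural cells at 13.0 CPM, rested on 3 UMIs. Excitatory neurons were lowest for MAF at 1.03 CPM.

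**Figure D5:**
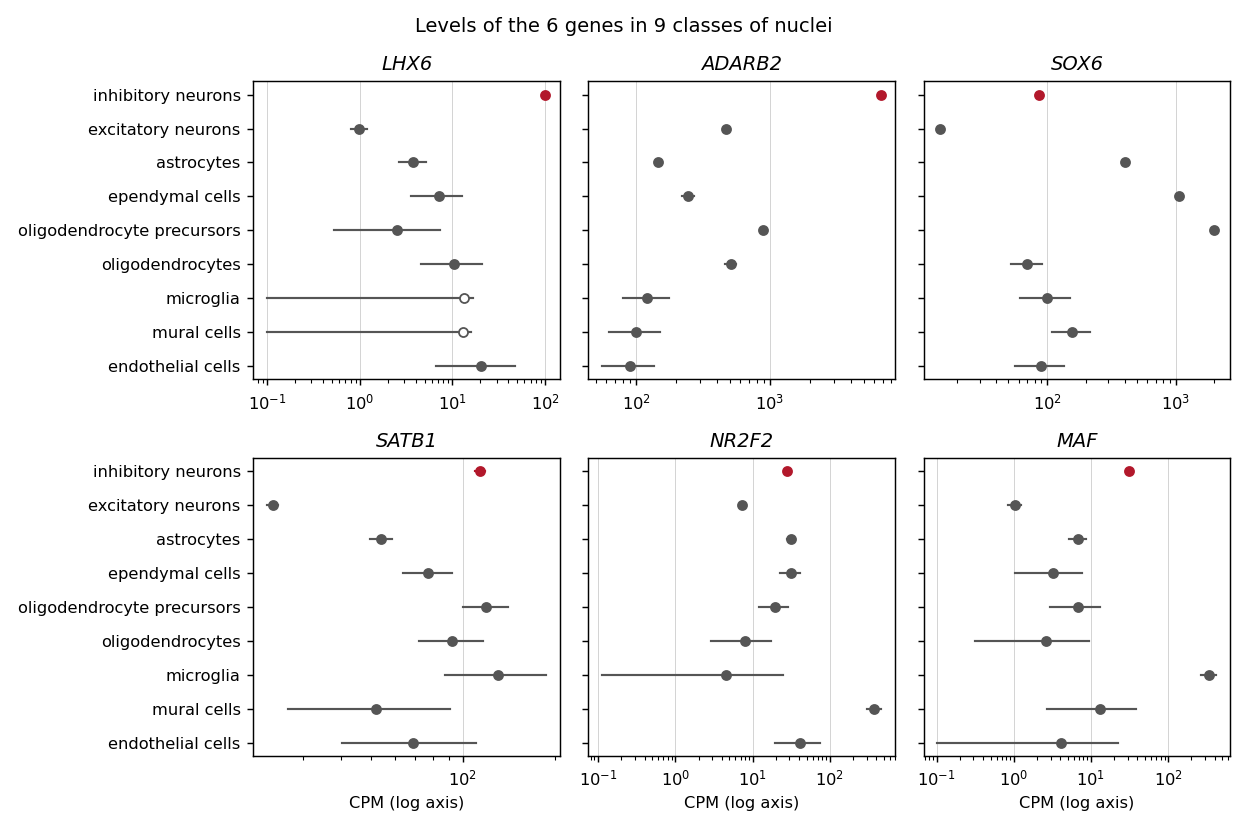
Level (CPM, logarithmic horizontal axes) of the 6 genes in 9 classes, with inhibitory neurons in red and exact 95% Poisson intervals; open circles mark 0 UMIs, drawn at the level of 3 counts. LHX6 and ADARB2 peak in inhibitory neurons, SOX6 in oligodendrocyte precursors at 1996 CPM, NR2F2 in mural cells at 377 CPM and MAF in microglia at 337 CPM.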

How the data were processed

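Nuclei from frozen amygdala were profiled with the 10x Chromium Single Cell 3′ V2 kit, per the labels' protocols, although the barcode sequences start as version 3 ones do and leave the version unsettled. The submitters' processing notes name fastp, Cell Ranger 3.0.0 and the build GRCh38. The authors deposited whole UMI counts of nuclear RNA for each gene in each nucleus, not normalized, and no coordinates are used. Presumed doublets (1862 nuclei, by the highest Scrublet scores in a set) were removed from clusters and classes but kept among GAD nuclei. Counts scaled to 10000, 2000 variable genes without the 6 members, 15 neighbours on 30 principal components and the Leiden method at resolution 0.5 gave clusters (scanpy 1.11.5, igraph 0.11.9, Python 3.11.15). Classes were named by markers. Inhibitory neurons needed GAD1 and GAD2 over 300 CPM, excitatory neurons SLC17A7 over 75, SV2B over 45 and RBFOX3 over 600 CPM, and other classes a mean log2 marker ratio over 3. Precursors and committed precursors of oligodendrocytes, found in 1 cluster, were joined after the data were seen, clusters with a median doublet score over 0.06 were not named, and 1361 nuclei stayed unnamed. Rows with a macaque Ensembl identifier took their symbol from a reference table where it was unique.

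Odds ratios are Mantel-Haenszel. CPM were taken on summed counts, and a gene was measured with at least 50 UMIs on one side and at least 10 to be had on each at the higher level. A count of 0 was set to 3 counts for a ratio. Named genes were the 6 members, up to 4 past 2-fold each way per list with the rest given by name, the 5 largest ratios each way, the 3 highest and lowest partners with a symbol and the 3 most alike genes per member. The 98% limit on partners was added after the data were seen. The members and lists were chosen with earlier results of these data known. The odds ratios and ratios were tested on simulated data. Thinning was checked on real GAD nuclei, and only for giving each the set total of UMIs.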

Additional observations from a re-analysis of the deposited data

How the results depend on the processing

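The log2 odds ratio of LHX6 with ADARB2 (-3.19) moved by more than its counting interval under 5 settings. It was -2.53 with at least 2 UMIs of each gene, -2.52 with nuclei thinned to 2000 UMIs and -4.03 with at least 10 UMIs of ADARB2. With inhibitory clusters as strata in place of depth it was of opposite sign, at 0.28. With those strata and at least 10 UMIs of ADARB2 it was 0.16. The count of pairs past 1 in either direction (6) was 10 with at least 2 UMIs and 0 with clusters as strata at either minimum. With clusters as strata and 1 UMI, ADARB2 with SOX6 also changed sign, to 0.16, as did LHX6 with NR2F2 (0.43), ADARB2 with NR2F2 (-0.12) and NR2F2 with MAF (0.29). In LHX6-only against ADARB2-only nuclei, 702 genes were higher and 1269 lower without the filter on low counts, against 227 and 593, and 198 were lower with thinning, which leaves fewer genes to measure. Leiden resolution 1.0 gave 23 inhibitory clusters and a rho of LHX6 with ADARB2 of -0.63, against -0.73. The ADARB2 minimum, the cluster strata, the restriction of the 2 groups to the inhibitory class and the ADARB2-only group from 10 UMIs were chosen after the data were seen. The other 55 recomputed values of the main comparisons stayed within 1.5 times or their spread, among them leaving out each barcode set (-3.25 to -3.06 for the pair, 6 to 8 pairs, 196 to 216 genes higher and 517 to 566 lower, rho -0.78 to -0.71). Of the values for single genes and other pairs, 570 stayed within their spread and the others moved beyond it, and 11 changed sign, of which 10 lay within 1 of 0 in the main setting. With thinning, SP8, CALB2 and SCGN were too few for a ratio, as was SV2B where nuclei with it were left out. No paired analysis was possible because the nuclei form 1 pool of 1 group.

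Animals could not be told apart, so no value carries the spread between them. Depth limits NR2F2 and MAF most, with 543 and 640 UMIs in GAD nuclei. The 3 smallest classes held 121 to 178 nuclei, and their intervals are wide. Presumed doublets were 8.59% of GAD nuclei.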

Other observations

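Of the combinations of the 6 genes in GAD nuclei, ADARB2 alone was the most frequent, in 927 nuclei (28.3%), followed by LHX6 with ADARB2 (189), ADARB2 with SOX6 (170), ADARB2 with NR2F2 (168) and LHX6 with SOX6 and SATB1 (153). LHX6 alone was found in 136 nuclei. None of the 6 was detected in 83 GAD nuclei (2.54%), exactly 1 in 35.8%, exactly 2 in 34.3%, and all 6 in 2 nuclei.

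The small cluster I16, with 35 nuclei, had 569 CPM of MEIS2, a homeobox gene of the lateral eminence, beside 8885 CPM of ADARB2 and 291 CPM of HTR3A. SATB1 and NR2F2 stood at 4.04 CPM each there, from 1 UMI each. Of the ADARB2-only nuclei, in which MEIS2 was higher than in LHX6-only ones, 27 (1.56%) lay in I16.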
